A study of Mus musculus with 9 samples.

Results

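The 8 genes described here are the core transcription factors of epithelial-mesenchymal transition (EMT), Snai1, Snai2, Zeb1, Zeb2, Twist1, Twist2 and Prrx1, together with vimentin (Vim), the filament protein used as its marker. They were chosen by name and not by a measured value, and all 8 were found among the 54838 gene identifiers of the count table. RNA-seq had been collected from PDA530 Met, a mouse line of pancreatic ductal adenocarcinoma, grown untreated. The series text writes PDA50 Met for the parental line, and both names were taken as the same line. PDA530 Met derives from a KPC mouse, a male of mixed 129/SvJae/C57Bl/6 background, whose tumour had spread to the liver. The KPC mouse is a genetic model of pancreatic cancer, and all 3 groups come from tumour cells of that origin. The KO clone is 1 single-cell clone in which CRISPR/Cas9 knocked out Zdhhc20, the gene of a palmitoyltransferase. The unedited clone, the study's control, is 1 single-cell clone that was nucleofected with the same guide RNAs, kept an unedited Zdhhc20 and still expresses it. The third group, called the parental line here, is PDA530 Met before cloning. Each group had 3 libraries. Each clone is a single clone, so the edit and the choice of clone cannot be told apart, and p-values measure the spread between libraries of a clone. What separated the libraries of a group beyond being biological samples is not given in the sources used here.

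In EMT an epithelial cell loosens its junctions and takes up features of a mesenchymal cell. SNAIL factors (Snai1, Snai2) and ZEB factors (Zeb1, Zeb2) are zinc finger proteins that bind E-box sequences and repress epithelial genes, E-cadherin among them. TWIST factors are basic helix-loop-helix proteins that act in pairs with E proteins, and PRRX1 is a homeobox factor. Vimentin forms intermediate filaments in mesenchymal cells and in many carcinoma lines. Tumours of the KPC model are known to lose epithelial features in part, and in such cells the factors can be present side by side with E-cadherin.

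Because SNAIL and ZEB factors bind the E-box CACCTG, the promoters of 3 members and of 2 epithelial genes are shown. They are from RefSeq on GRCm38.p6, from 250 bases before to 50 bases after a transcript start, 5′ to 3′, with each match to it on either strand in capitals. Crb3 and Spint2 were chosen after their values were seen, as the epithelial genes that fell in both KO comparisons and had the most matches. The first is the Snai1 promoter, chr2:167537945-167538244 on the plus strand, the single member promoter with a match. Zeb2 is at chr2:45117393-45117692 on the minus strand and Vim at chr2:13574061-13574360 on the plus strand. Crb3, a polarity protein of the apical membrane, is at chr17:57061951-57062250 on the plus strand. Spint2, an inhibitor of surface serine proteases, is at chr7:29281928-29282227 on the minus strand.
Snai1: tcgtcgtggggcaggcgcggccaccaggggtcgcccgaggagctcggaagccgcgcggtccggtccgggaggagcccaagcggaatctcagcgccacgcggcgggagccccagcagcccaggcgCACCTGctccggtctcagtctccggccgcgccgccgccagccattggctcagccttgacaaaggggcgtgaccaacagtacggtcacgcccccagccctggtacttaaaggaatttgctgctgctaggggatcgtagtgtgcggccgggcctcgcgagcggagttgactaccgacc
Zeb2: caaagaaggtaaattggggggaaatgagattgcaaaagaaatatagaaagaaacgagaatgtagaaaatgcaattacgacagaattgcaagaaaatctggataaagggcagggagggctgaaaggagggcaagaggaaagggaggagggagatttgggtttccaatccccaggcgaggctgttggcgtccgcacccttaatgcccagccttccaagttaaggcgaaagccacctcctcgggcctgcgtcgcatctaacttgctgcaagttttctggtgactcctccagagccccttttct
Vim: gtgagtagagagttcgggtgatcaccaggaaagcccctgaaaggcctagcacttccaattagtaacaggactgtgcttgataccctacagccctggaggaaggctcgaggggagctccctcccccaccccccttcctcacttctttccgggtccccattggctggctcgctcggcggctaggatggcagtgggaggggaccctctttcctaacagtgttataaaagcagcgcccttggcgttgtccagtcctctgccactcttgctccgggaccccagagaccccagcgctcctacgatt
Crb3: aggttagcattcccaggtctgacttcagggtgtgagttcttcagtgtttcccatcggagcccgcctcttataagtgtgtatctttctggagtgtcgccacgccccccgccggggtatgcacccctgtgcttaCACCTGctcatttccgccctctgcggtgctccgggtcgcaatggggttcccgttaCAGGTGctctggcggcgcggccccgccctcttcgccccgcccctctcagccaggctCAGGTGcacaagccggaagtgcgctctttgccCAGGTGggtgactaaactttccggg
Spint2: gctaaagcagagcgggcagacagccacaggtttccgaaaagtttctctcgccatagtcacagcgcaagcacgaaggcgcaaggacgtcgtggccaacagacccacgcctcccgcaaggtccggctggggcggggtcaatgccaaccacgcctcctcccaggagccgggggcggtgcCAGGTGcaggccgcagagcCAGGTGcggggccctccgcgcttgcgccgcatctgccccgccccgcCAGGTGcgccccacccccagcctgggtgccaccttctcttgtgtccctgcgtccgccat

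Snai1 had 1 match, which begins 126 bases before the start, and the promoters shown for Zeb2 and Vim had none. Crb3 had 4 matches and Spint2 had 3. Of the 8 members, 6 had promoters in the RefSeq table, and 1 of these 6 held the motif. The motif was in 20.2% of all 32851 promoters of this length, and 22.6% of 27025 genes had it in at least 1 promoter. A match is a description of the letters in the window and not a binding site.

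The libraries held 16525869 to 23192701 counts. Correlations of log2 CPM (counts scaled to equal library sizes) within a group were 0.9637 to 0.9906, and the lowest was between unedited replicates 2 and 3, so these libraries stand apart within their group. Zdhhc20, the targeted gene, averaged 38.0 CPM in the KO clone, 110 CPM in the unedited clone and 82.4 CPM in the parental line, and was called lower in the KO clone against both (edgeR quasi-likelihood adjusted p = 6.97e-05 and 0.000585). The ductal marker list fixed for these cells, with keratins 7, 8, 18 and 19, summed to 4436 to 4574 CPM in the KO libraries, 7315 to 9776 CPM in the unedited libraries and 6860 to 8344 CPM in the parental libraries. Of its 10 genes 6 were called lower and 2 higher against the unedited clone, and 7 lower and 1 higher against the parental line, where all tested genes had 24.2% lower and 18.7% higher calls in the first comparison and 18.3% and 13.1% in the second. The higher ones were Epcam and Cftr, and Epcam alone, each of which passed the filter through 1 group. Cftr is also among the 7 lower against the parental line and passed through the parental libraries, where it is high. Its lower call there and the higher calls of Epcam therefore support nothing. With no filter Cftr was at -2.87 against the parental line (edgeR adjusted p = 0.000756). Epcam, a defining epithelial marker, was at most 0.635 CPM in any library.

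Of the 8 members, 6 passed the filter on low counts. Snai1 and Twist2 did not, and Twist1 passed only through the parental libraries. In the KO clone against the unedited clone, Zeb2, Prrx1 and Snai2 rose, Vim and Twist1 fell, and Zeb1 was not called. Called means a Benjamini-Hochberg adjusted p below 0.05 over all tested genes in edgeR, which held for 42.9% of all tested genes in this comparison, with 18.7% higher and 24.2% lower. Against the parental line Zeb2 and Snai2 rose and Vim and Twist1 fell, where 31.4% of tested genes were called (13.1% higher, 18.3% lower). Between the unedited clone and the parental line Zeb2 and Twist1 were lower in the unedited clone, where 21.4% of tested genes were called (10.4% higher, 11.0% lower). Since Twist1 passed the filter only through the group where it is high, its calls in these counts support nothing, and its test with no filter stands with its values. The 3 comparisons share libraries, and a count of members this small is not read against these shares.

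**Figure D1:**
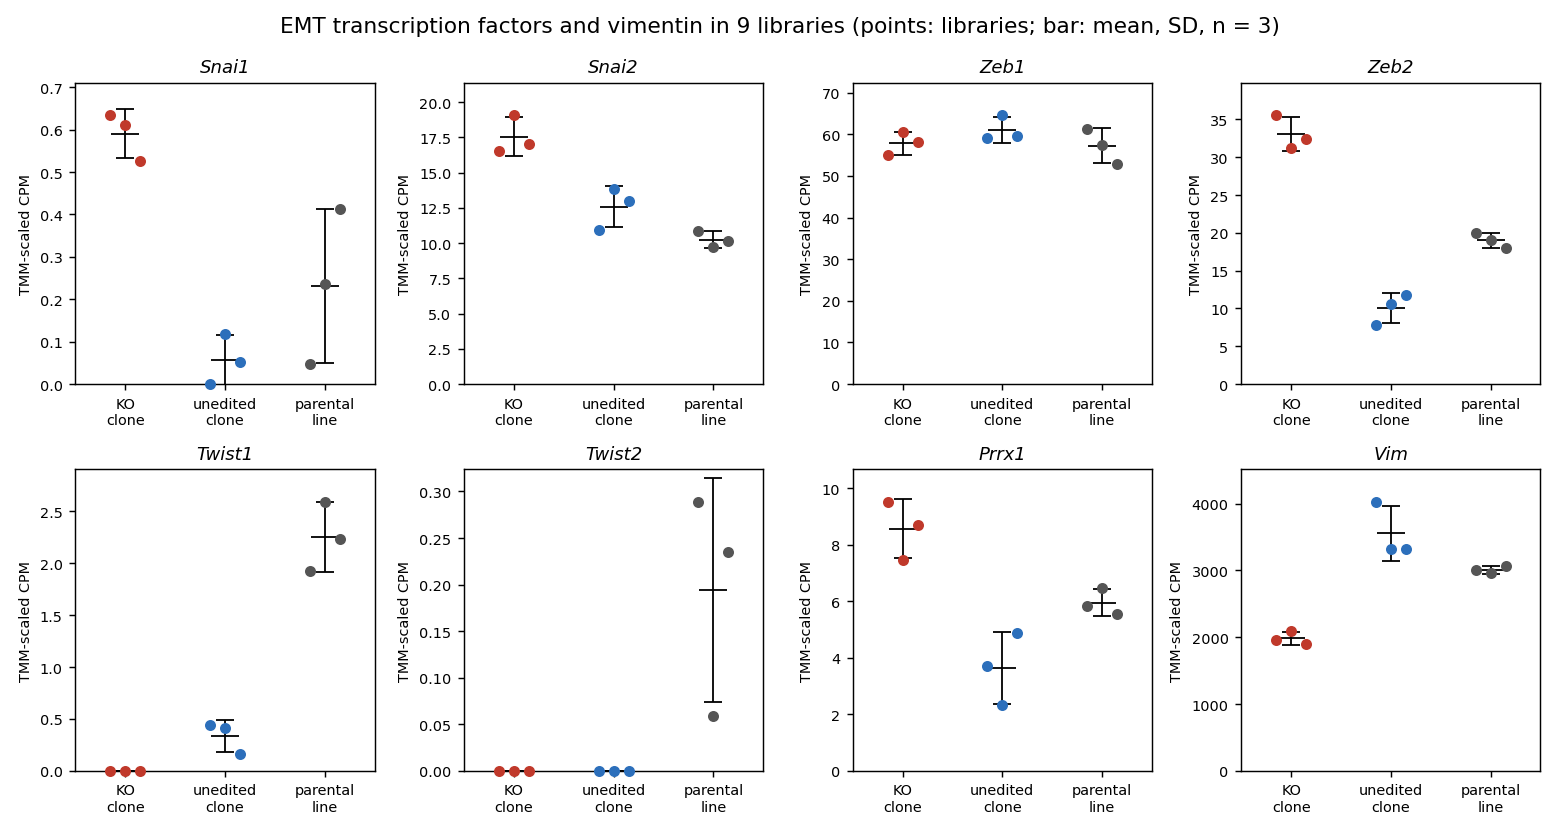
Levels of the 8 members in 9 libraries, in TMM-scaled CPM on the y axis, 1 panel a gene. Points are libraries, and bars are the mean and SD of 3 libraries. The Zeb2 points of the KO clone, 31.3 to 35.6 CPM, lie above all others, and its Vim points, 1896 to 2094 CPM, lie below all others.

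Among the ZEB factors, only Zeb2 was called. Zeb2 (ENSMUSG00000026872, chromosome 2 from 44983632 to 45117395, minus strand, GRCm38) was at 35.6, 31.3 and 32.4 CPM in the KO libraries. The unedited libraries held 7.81, 10.5 and 11.8 CPM and the parental libraries 19.9, 19.0 and 18.0 CPM. The 3 groups did not overlap, with the KO clone highest and the unedited clone lowest. Zeb2 was 3.31-fold higher in the KO clone than in the unedited clone (log2 fold change 1.73, SE 0.14, edgeR adjusted p = 3.12e-05). It was 1.74-fold higher than in the parental line (0.80, SE 0.14, edgeR adjusted p = 0.00244). The unedited clone was 1.90-fold below the parental line (-0.93, SE 0.14, edgeR adjusted p = 0.00258), so both clones differed from the uncloned line, in opposite directions. In bulk RNA a change in the number of cells that carry a transcript and a change in RNA per cell cannot be told apart.

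Zeb1 (ENSMUSG00000024238, chromosome 18), the paralog of Zeb2, was at 54.9, 60.5 and 58.0 CPM in the KO libraries. The unedited libraries held 59.1, 64.7 and 59.5 CPM, and the parental libraries held 61.4, 57.5 and 52.9 CPM. All 3 groups overlapped. The log2 fold change was -0.08 against the unedited clone (95% interval -0.26 to 0.10, edgeR adjusted p = 0.464) and 0.01 against the parental line (-0.17 to 0.20, edgeR adjusted p = 0.918). The sign of the second value changed with the scaling, and these intervals leave room for changes within their bounds in either direction. Because Zeb2 moved and Zeb1 was not called, the ratio of their levels per kilobase of exon was compared within each library. It was chosen after these values were seen, so it describes them and adds no support beyond the Zeb2 test. It was 0.296 ± 0.0345 in the KO clone, 0.0845 ± 0.0168 in the unedited clone and 0.171 ± 0.0040 in the parental line (SD, n = 3). The log2 difference was 1.82 between the KO and the unedited clone and 0.78 between the KO clone and the parental line. Neither set of 3 overlapped the other, and the two-sided exact permutation p was 0.1 for each, the smallest that 3 against 3 allows (0.12 after adjustment over 12 ratio comparisons).

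Antisense genes overlap the exons of both ZEB genes, and the strand setting of the counting is not given in the sources used here. Zeb2os shares 653 bases with Zeb2 and had at most 4 counts in a library. Gm10125 shares 198 bases with Zeb1 and also had at most 4 counts. Zeb2 had 580 to 1845 counts a group.

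Of the SNAIL factors among the members, Snai2 was the more abundant and was highest in the KO clone. Snai3, of the same family and counted below with other regulators, averaged 2.29, 4.20 and 3.29 CPM in the KO clone, unedited clone and parental line. It was called lower in the KO clone against the unedited clone (-0.88, edgeR adjusted p = 0.0115). Against the parental line it was not called (edgeR adjusted p = 0.110). Snai2 (ENSMUSG00000022676, chromosome 16 from 14705852 to 14709385, plus strand), which encodes SLUG, was at 16.5, 19.1 and 17.1 CPM in the KO libraries. The unedited libraries held 11.0, 13.8 and 13.0 CPM and the parental libraries 10.9, 9.72 and 10.1 CPM. Every KO library lay above every other library, and the lowest unedited library lay just above the highest parental library. Snai2 was 1.40-fold higher than in the unedited clone (log2 fold change 0.48, SE 0.12, edgeR adjusted p = 0.00933). It was 1.71-fold higher than in the parental line (0.78, SE 0.12, edgeR adjusted p = 0.00130). The unedited clone and the parental line differed by 0.29 (SE 0.12), which was not called (edgeR adjusted p = 0.115). The tested genes of chromosome 16 lay lower in the KO clone. Their median log2 fold change was -0.35 against the unedited clone and -0.29 against the parental line, beside medians of -0.02 and -0.01 over all tested genes. Snai2 therefore moved against the median of its chromosome.

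Snai1 (ENSMUSG00000042821, chromosome 2 from 167538195 to 167542814, plus strand), the founding member of the family, was near the limit of detection. It had 13, 11 and 9 counts in the KO libraries, 0, 2 and 1 counts in the unedited libraries, and 1, 4 and 7 counts in the parental libraries. The KO libraries did not overlap the others, but no library held more than 13 counts. By summed counts Snai1 was 11.6-fold higher than in the unedited clone, with a 95% counting interval of 3.65 to 59.3, and 2.71-fold higher than in the parental line, with an interval of 1.36 to 5.76. Single libraries move these folds, the first to 7.10 without unedited replicate 1 and 24.9 without unedited replicate 2, and the second to 4.48 without parental replicate 3. These intervals cover counting error only. With no filter on low counts, where 22.6% of genes were called against the unedited clone (9.63% higher) and 15.9% against the parental line (6.36% higher), the edgeR adjusted p was 0.00618 against the unedited clone and 0.248 against the parental line.

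Twist1 went the other way from Zeb2 and Snai2. It encodes a factor of mesoderm and neural crest. Twist1 (ENSMUSG00000035799, chromosome 12 from 33957671 to 33959829, plus strand) had 0 counts in all 3 KO libraries, 10, 7 and 3 counts in the unedited libraries, and 40, 44 and 38 counts in the parental libraries. The groups did not overlap, and every parental library lay above every unedited library. Against a floor of 3 counts over the KO group, Twist1 was at least 6.30-fold lower than in the unedited clone (adjusted p = 0.00049 in edgeR with no filter on low counts, where 13.0% of genes were called lower). The bound against the parental line was at least 41.3-fold lower (edgeR adjusted p with no filter 3.31e-07). The floor corresponds to 0.0540 CPM in the KO group, so a lower level would not have been detectable at this depth. The unedited clone was also below the parental line, 6.55-fold by summed counts, with a 95% counting interval of 4.06 to 11.1 (edgeR adjusted p with no filter 0.000416).

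Twist2 (ENSMUSG00000007805, chromosome 1 from 91801461 to 91848028, plus strand) had 6, 1 and 4 counts in the parental libraries and 0 in every library of both clones. Against the floor of 3 counts over a group Twist2 was at least 3.72-fold lower in the KO clone and at least 3.94-fold lower in the unedited clone. With no filter, where 9.5% and 5.4% of genes were called lower in these comparisons (5.55% higher in the second), its edgeR adjusted p was 0.0511 and 0.0606, so neither was called. The antisense gene Gm29100, which shares 1477 exon bases with Twist2, had 19, 5 and 14 counts in the parental libraries and at most 3 in any other library. Without strand, the reads of these genes cannot be told apart.

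Twist1 and Twist2 are also genes of fibroblasts, and fibroblast markers were measured beside them. Of 9 such markers, 3 had counts in the KO clone and 4 in each of the other groups. The list summed to 0.876 to 1.67 CPM in the KO libraries, 1.31 to 2.89 CPM in the unedited libraries and 3.12 to 4.05 CPM in the parental libraries. Col1a2, Col3a1, Dcn, Lum and Thy1, which define fibroblasts, were at 0 in all 9 libraries. Only Pdgfra, a growth factor receptor gene, passed the filter. It averaged 0.702 CPM in the KO clone, 1.68 CPM in the unedited clone and 2.94 CPM in the parental line, and was called lower in the KO clone in both comparisons (edgeR adjusted p = 0.0239 and 0.00281) but not between the other groups (0.118). The part of these genes in the Twist1 result was not tested. Endothelial markers summed to at most 0.577 CPM and blood cell markers to at most 2.92 CPM.

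The tested genes of chromosome 12, which holds Twist1, had a median log2 fold change of -0.25 against the unedited clone and 0.02 against the parental line, beside -0.02 and -0.01 over all tested genes. Against the unedited clone 37.3% of them were called lower and 5.58% higher, beside 24.2% and 18.7% of all tested genes. In the comparison with the parental line 13.5% were called in each direction, beside 18.3% lower and 13.1% higher. Between the unedited clone and the parental line the median was 0.29, beside 0.01 over all tested genes, and Twist1 moved against it. There 30.3% were called higher and 3.65% lower, beside 10.4% and 11.0% of all tested genes. Of the 5 tested genes on either side of Twist1, 1 was called higher and 3 lower against the unedited clone, and 4 were called higher and 1 lower against the parental line. Between the unedited clone and the parental line 4 were called higher and 0 lower (median 0.39). Tspan13, the gene among them that was called lower in both KO comparisons, was at -2.66 and -2.44. Twistnb, the closest tested gene, was at 0.04 and 0.49. These neighbours were examined after the values of Twist1 had been seen.

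**Figure D2:**
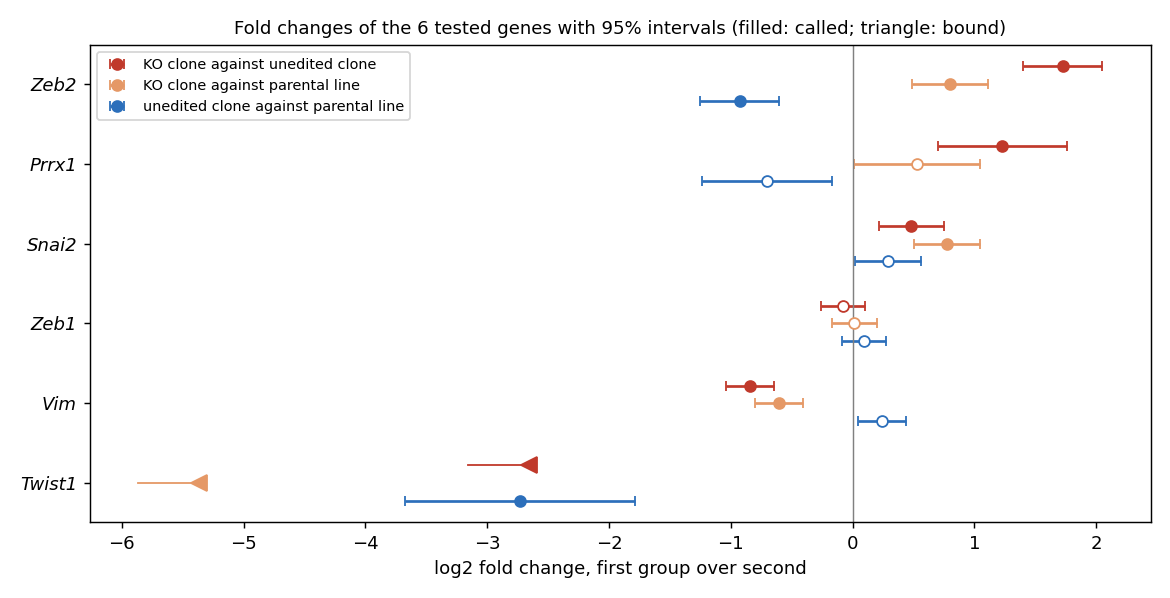
Log2 fold changes of the members that passed the filter in the 3 comparisons, with 95% intervals. Zeb2 lies at 1.73 and 0.80 in the KO comparisons and at -0.93 between the unedited clone and the parental line, whereas the Zeb1 intervals cross 0 in all 3.

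Prrx1 followed the order of Zeb2 at a lower level. Prrx1 (ENSMUSG00000026586, chromosome 1 from 163245119 to 163313710, minus strand) was at 9.52, 7.46 and 8.70 CPM in the KO libraries, 3.71, 2.32 and 4.88 CPM in the unedited libraries, and 5.83, 6.48 and 5.53 CPM in the parental libraries. The groups did not overlap. Prrx1 was 2.34-fold higher in the KO clone than in the unedited clone (log2 fold change 1.23, SE 0.24, edgeR adjusted p = 0.00271). Against the parental line it was at 0.53 (SE 0.23), which was not called (edgeR adjusted p = 0.110), although it was in 3 of 16 alternatives: in the fit of those groups alone (adjusted p = 0.00667), without unedited replicate 2 (0.0197) and without unedited replicate 3 (0.0395). The unedited clone was at -0.70 (SE 0.24) against the parental line, also not called (edgeR adjusted p = 0.0642). That value was called in 3 of 16 alternatives, and leaving out unedited replicate 3 gave -0.96 (adjusted p = 0.0109). Of the 10 tested genes nearest to Prrx1, 5 on each side, 4 were called higher and 0 lower against the unedited clone (median 0.28), 1 higher and 0 lower against the parental line (median 0.02), and 0 higher and 3 lower between the unedited clone and the parental line (median -0.23). The shares of all tested genes called higher and lower were 18.7% and 24.2%, 13.1% and 18.3%, and 10.4% and 11.0% in these comparisons. On chromosome 1 they were 22.7% and 20.1% against the unedited clone and 6.96% and 24.9% against the parental line. Between the unedited clone and the parental line they were 5.38% and 23.6%. The part of the region in the Prrx1 values was not tested.

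Vim went down in the KO clone while Zeb2, Snai2 and, against the unedited clone, Prrx1 went up. Vim (ENSMUSG00000026728, chromosome 2 from 13573927 to 13582826, plus strand) was at 1957, 2094 and 1896 CPM in the KO libraries. The unedited libraries held 4029.9, 3319 and 3319 CPM and the parental libraries 3005, 2956 and 3070.1 CPM. Every KO library lay below every other, and every unedited library lay above every parental library. Vim was 1.79-fold lower in the KO clone than in the unedited clone (log2 fold change -0.84, SE 0.09, edgeR adjusted p = 0.000106). It was 1.52-fold lower than in the parental line (-0.60, SE 0.09, edgeR adjusted p = 0.000997). Its rank by CPM was 18 to 24 in the KO libraries and 5 to 13 in the others, and by CPM per kilobase of exon 90 to 110 and 45 to 65. It took up 0.188% to 0.213% of all counts in the KO libraries, against 0.323% to 0.398% in the unedited libraries and 0.303% to 0.309% in the parental libraries. The unedited clone was 0.24 above the parental line (SE 0.09), which was not called (edgeR adjusted p = 0.0819), but was called without unedited replicate 2 (0.29, adjusted p = 0.0362) or without unedited replicate 3 (0.29, adjusted p = 0.0327).

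Levels of different genes were compared as CPM per kilobase of exon. Vim stood far above the factors, at 418 in the KO clone, 750 in the unedited clone and 635 in the parental line. Snai2 and Zeb1 followed. Snai2 was at 8.68, 6.22 and 5.07 and Zeb1 at 5.63, 5.95 and 5.58 CPM per kilobase, in the same order of groups. Their libraries overlapped in the unedited clone and in the parental line but not in the KO clone, where Snai2 was 1.54-fold above Zeb1. This order rests on the length used, since per kilobase of the longest transcript Zeb1 was at 9.97, 10.5 and 9.87 and lay above Snai2 in every group.

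The lower ranks differed more between groups. In the KO clone the order was Zeb2 at 1.66, Prrx1 at 0.774 and Snai1 at 0.364 CPM per kilobase, with no overlap between neighbours, and both TWIST factors at 0. In the unedited clone Zeb2 at 0.503 and Prrx1 at 0.329 overlapped, as did Prrx1 and Twist1 at 0.207. In the parental line Twist1 at 1.38 CPM per kilobase lay above Zeb2 at 0.952 and Prrx1 at 0.537, with no overlap between them. Snai1 and Twist2 were lowest there and overlapped. These ranks also rest on the length used. Per kilobase of the longest transcript, Zeb2 at 2.08 lay above Twist1 at 1.38 in the parental line, and in the unedited clone Zeb2 (lowest library 0.856), Prrx1 at 0.557 and Twist1 at 0.207 did not overlap.

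**Figure D3:**
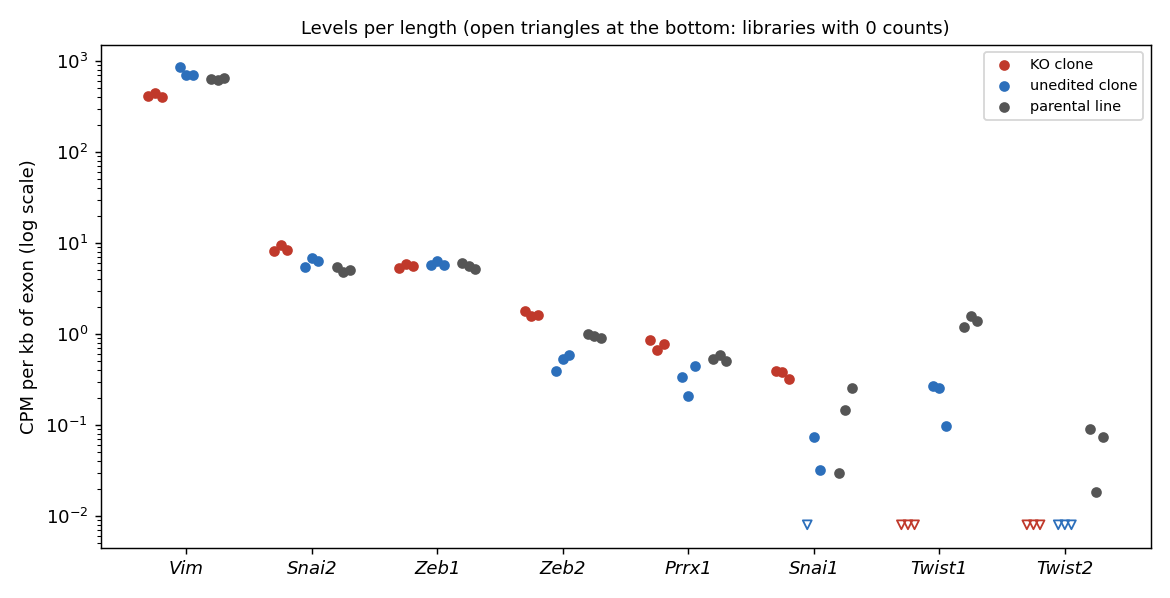
Levels of the 8 members in CPM per kilobase of exon on a log axis, by group, with 1 point a library. Vim lies at 418 to 750 on average, and Twist1 moves from 1.38 in the parental line to 0.207 in the unedited clone and to no count in the KO clone.

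For each member that passed the filter, the genes with the most similar pattern over the 9 libraries were found among 10012 genes by Pearson's r of log2 CPM. The libraries fall into 3 groups, so r mostly reflects the 3 group levels, and it is given as a description. Zeb2 was closest to Zfp9 (r = 0.995) and to Mpdz (0.990), a scaffold protein of cell junctions. Vim was closest to Il5ra (0.997) and Ripk4 (0.992), Snai2 to Prdm2 (0.985) and Pnp (0.984), and Prrx1 to Limd2 and Sept6 (both 0.992). Twist1 was closest to Dpy19l1 (0.991) and to Tcf12 (0.987), which encodes an E protein that pairs with TWIST. Zeb1, which was not called, had lower values, with Ctu2 (0.938) and Pars2 (0.914).

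Among 9 genes of the TWIST dimer system, 6 were tested. Against the parental line 0 were called higher and 3 lower in the KO clone, and against the unedited clone 1 was higher and 2 lower, with medians of -0.67 and -0.08. All tested genes had 13.1% higher and 18.3% lower calls against the parental line and 18.7% and 24.2% against the unedited clone. Id1 and Id2, inhibitors that take up E proteins, were at -1.53 and -1.41 against the parental line (edgeR adjusted p = 0.00848 and 0.000742), and Tcf12 was at -0.62 (0.000496). Tcf4, another E protein, was not called in any of the 3 comparisons. Between the unedited clone and the parental line 0 were higher and 3 lower, namely Tcf3, Tcf12 and Id2, with a median of -0.59, beside 10.4% higher and 11.0% lower calls of all tested genes. The count against the unedited clone was 1 without unedited replicate 1, KO replicate 1 or KO replicate 2. The count against the parental line was 5 without unedited replicate 3. Between the unedited clone and the parental line it was 1 without parental replicate 1 and 5 without unedited replicate 3.

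Of 16 other regulators described as able to start EMT, 11 were tested. In the KO clone 5 were called higher and 2 lower against the unedited clone, and 3 higher and 1 lower against the parental line, with medians of 0.17 and 0.30. Among all tested genes 18.7% and 13.1% were higher in these comparisons, and 24.2% and 18.3% were lower. Hmga2, a chromatin protein of embryonic and tumour cells, was at 526, 429 and 496 CPM in the KO libraries and at no more than 207 CPM elsewhere (1.52 and 1.64 on the log2 scale, edgeR adjusted p = 0.00199 and 0.00212). Sox4 was at 1.21 and 0.86, and Fosl1, an AP-1 subunit, at 0.83 and 0.99, each called in both. The Fosl1 calls were lost without any 1 KO library against the unedited clone, as without unedited replicate 1 or 3 (adjusted p up to 0.117), and without KO replicate 1 or 2 or parental replicate 2 or 3 against the parental line (up to 0.0775). Yap1, the effector of the Hippo pathway, fell by 0.85 against the unedited clone and by 0.68 against the parental line. Foxc2 and Gsc had no count. Without unedited replicate 2, 7 genes of the list were called against the parental line in place of 4.

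The cofactors of the repressors were present throughout. All 17 genes of the SNAIL and ZEB corepressor list were tested, and 6 were higher and 2 lower against the unedited clone and 4 higher and 2 lower against the parental line. Beside these counts, higher calls made up 18.7% and lower calls 24.2% of all tested genes in the first comparison, and 13.1% and 18.3% in the second. Kdm1a, a histone demethylase recruited by SNAIL, was at 0.42 and 0.41 (edgeR adjusted p = 0.00151 and 0.00268), and Hdac1 at 0.41 and 0.34. The CtBP corepressors of ZEB, Ctbp1 and Ctbp2, were not called. Of the SNAIL turnover list 17 of 18 were tested, with 5 higher and 2 lower against the unedited clone and 4 higher and 3 lower against the parental line, beside the same shares. Gsk3b, a kinase that marks SNAIL for degradation, fell by 0.33 and 0.57 (edgeR adjusted p = 0.0149 and 0.00135), with the first call lost without KO replicate 2 or 3 (adjusted p up to 0.0773), and Loxl3 was at -2.15 and -1.71. Without KO replicate 1 or 3 the corepressor count against the unedited clone was 4 or 5 in place of 8, and without unedited replicate 3 that against the parental line was 10 in place of 6. Without KO replicate 3 the SNAIL turnover count against the unedited clone was 4 in place of 7. Against the parental line it was 3 or 4 in place of 7 without any 1 KO or parental library.

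Some epithelial factors that oppose ZEB fell in the KO clone. Of 11 genes 7 were tested, of which 5 fell against the unedited clone and 4 against the parental line, and 0 rose in either. Lower calls made up 24.2% and 18.3% of all tested genes in these comparisons, and higher calls 18.7% and 13.1%. The medians were -1.22 and -1.84, the same with Grhl3 at its bound. Elf3, an ETS factor of epithelia, was at 12.9, 12.2 and 12.5 CPM in the KO libraries against 35.2 to 85.8 CPM in the unedited and 43.4 to 62.4 CPM in the parental libraries (-2.42 and -1.99, edgeR adjusted p = 0.000288 and 0.00124). Klf4 was at -1.85 and -1.84. Klf5 was not called in either (-0.02 and -0.13, edgeR adjusted p = 0.837 and 0.235), and Cebpa was called only against the parental line. Grhl3 had 0 counts in the KO clone, 119 in the unedited clone and 232 in the parental line, at least 37.5-fold and at least 78.5-fold lower. Unedited replicate 3 held 94 of the 119 counts, and without it the first bound was at least 11.7-fold. Ovol1, Ovol2 and Esrp1, known as partners in the feedback with ZEB, had at most 1 count in a group, in all 3 groups.

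Epithelial genes that the factors are known to repress were also mostly lower. Of 28 genes, 23 were tested, and 17 were lower and 4 higher against the unedited clone, with a median of -0.78. Against the parental line 14 were lower and 2 higher, with a median of -0.65. These counts stand beside 24.2% lower and 18.7% higher calls over all tested genes in the first comparison, and 18.3% and 13.1% in the second. The higher calls were near the background or under it. The list was chosen with earlier results of these data known. Cdh1, which encodes E-cadherin, was at 767, 784 and 754 CPM in the KO libraries, 1445, 1067 and 1326 CPM in the unedited libraries and 1136, 1134 and 1335 CPM in the parental libraries. It was 1.67-fold and 1.56-fold lower in the KO clone (-0.74 and -0.65, SE 0.11 for each, edgeR adjusted p = 0.000848 and 0.00263), with no overlap.

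The desmosome linkers Dsp and Ppl fell by 1.35 and 1.20 against the unedited clone and by 1.59 and 1.55 against the parental line. Tjp3, a tight junction scaffold, had 5, 6 and 6 counts in the KO libraries (0.244 CPM in the lowest) and 1.07 to 8.47 CPM in all others (-3.28 and -4.39, edgeR adjusted p = 0.00141 and 0.00041). Of the 4 genes of the list called higher against the unedited clone, Marveld2, which encodes tricellulin of tight junctions, averaged 7.36 CPM against 1.76 CPM (2.05, edgeR adjusted p = 0.000879). The claudin gene Cldn7 was at 0.63 (edgeR adjusted p = 0.0407), a call lost in 7 of 9 fits with 1 library left out (adjusted p up to 0.139). Neither was called against the parental line. Cldn4 and Epcam, at no more than 2.04 and 0.635 CPM, passed the filter only through the KO libraries, where they are high, so their higher calls in the counts of this list support nothing. With no filter the edgeR adjusted p was 6.7e-05 and 0.000204 for Cldn4, and 0.0229 and 0.0821 for Epcam, which was then not called against the parental line. Of the 18 list genes with a RefSeq promoter, 14 held the CACCTG motif. Of the 12 of these that were tested, 7 fell and 4 rose against the unedited clone, and 6 fell and 2 rose against the parental line. Among all tested genes 24.2% and 18.3% were called lower in these comparisons, and 18.7% and 13.1% higher. The 2 that rose against the parental line are Cldn4 and Epcam, which are also among the 4 that rose against the unedited clone. Both passed the filter only through the KO libraries, so these rises support nothing. Of the 2 tested genes without the motif 1 fell and 0 rose in each comparison. The groups are too small for a comparison.

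**Figure D4:**
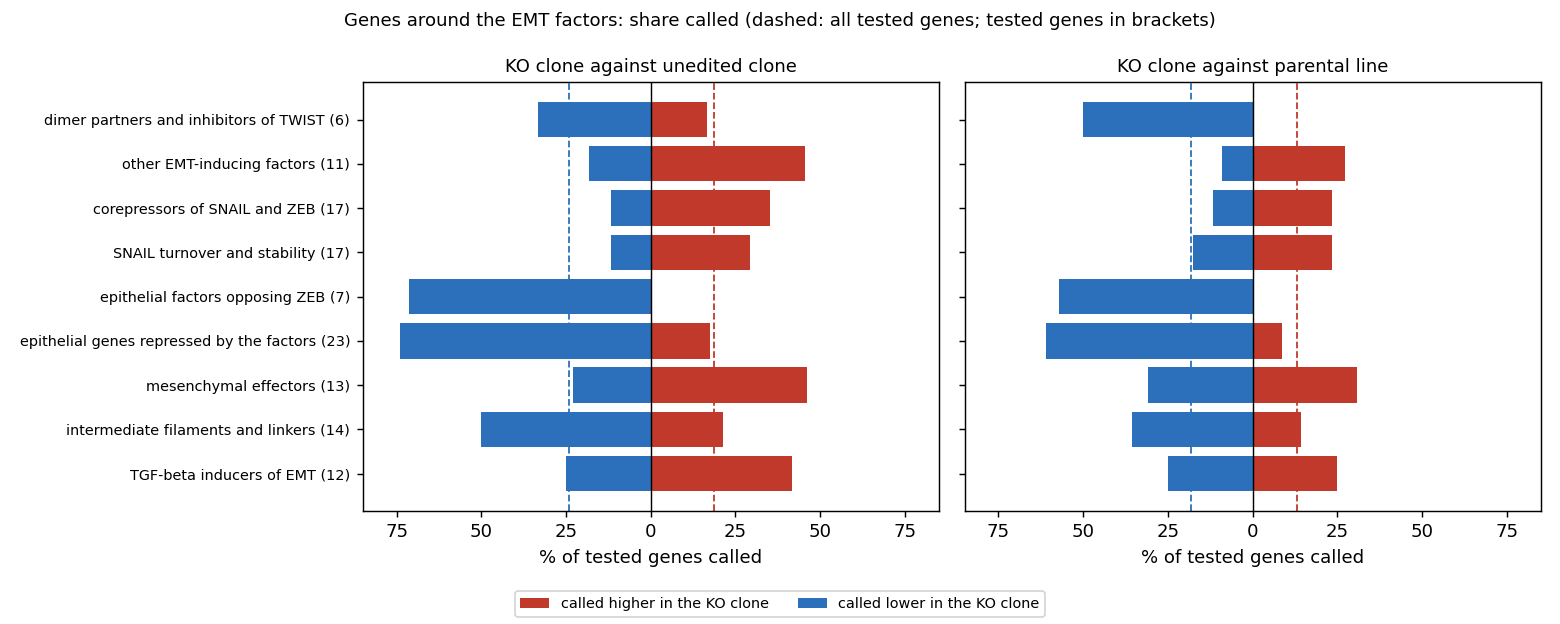
Percent of tested genes called higher and lower in the KO clone for each list around the EMT factors, against the unedited clone and against the parental line. Dashed lines are the percent of all tested genes called in each direction, 18.7% and 24.2% against the unedited clone. The lower calls of the epithelial lists reach past the dashed line and those of the corepressor list do not.

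The mesenchymal effectors had calls in both directions. Of 26 genes, 13 were tested and the rest were at or near 0. Against the unedited clone 6 rose and 3 fell, and against the parental line 4 rose and 4 fell, with medians of 0.24 and 0.25. The lower calls against the unedited clone were near the 24.2% of all tested genes, where higher calls made up 18.7%. The shares against the parental line were 13.1% higher and 18.3% lower. Fn1, the matrix protein fibronectin, was at 849, 749 and 821 CPM in the KO libraries, 152, 157 and 136 CPM in the unedited libraries and 494, 449 and 391 CPM in the parental libraries. The groups did not overlap and stood in the same order as for Zeb2. Fn1 was 5.43-fold higher than in the unedited clone and 1.81-fold higher than in the parental line (2.44 and 0.86, edgeR adjusted p = 9.38e-07 and 0.000305), and the unedited clone was 1.58 lower than the parental line on the log2 scale (edgeR adjusted p = 2.88e-05).

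Cdh2, which encodes N-cadherin, was not called, except against the unedited clone without unedited replicate 2 (0.35, adjusted p = 0.00604). It lay at 343 to 383 CPM in the KO libraries, 280 to 402 CPM in the unedited libraries and 310 to 359 CPM in the parental libraries. The 95% interval of its log2 fold change was -0.14 to 0.47 against the unedited clone and -0.18 to 0.43 against the parental line. S100a4, known as a fibroblast and metastasis protein, fell with Vim, to 18.7, 20.4 and 20.1 CPM from at least 67.2 CPM in the other libraries (-2.58 and -2.73, edgeR adjusted p = 0.00011 and 0.000137). The collagen gene Col6a1 was at -1.46 and -2.17 and the matrix gene Sparc at -1.11 and -1.89, each called in both.

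**Figure D5:**
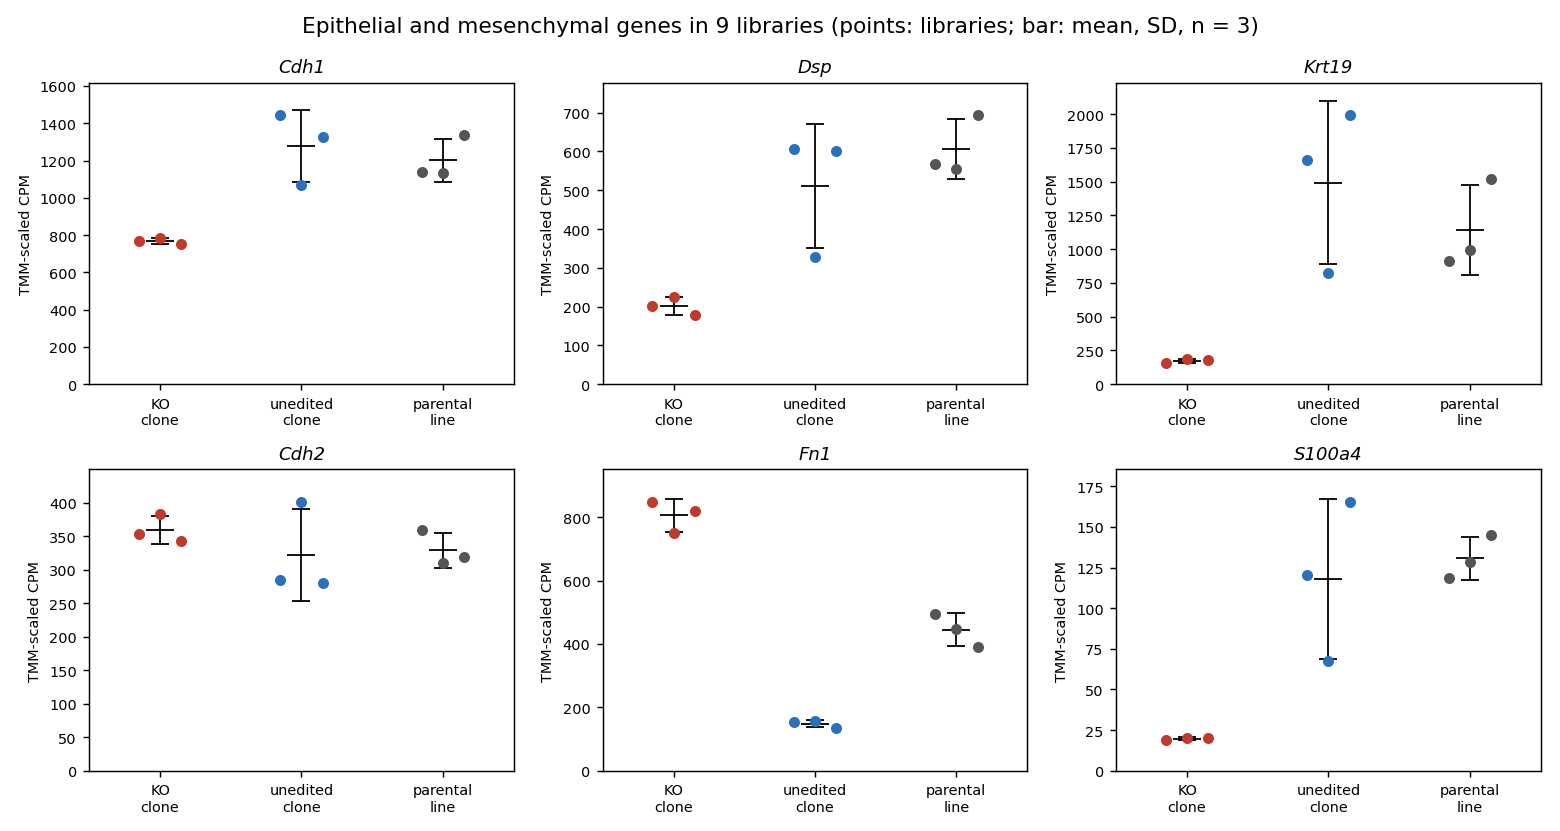
Levels of 3 epithelial genes (upper row) and 3 mesenchymal genes (lower row) in TMM-scaled CPM, with 1 point a library and the mean and SD of 3 libraries. Cdh1 lies at 754 to 784 CPM in the KO clone, Fn1 rises there to 749 to 849 CPM, and Cdh2 overlaps between all groups.

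Other filament genes were called beside Vim. Of 17 intermediate filament and linker genes, 14 were tested, and 3 were higher and 7 lower against the unedited clone and 2 higher and 5 lower against the parental line. The shares of all tested genes were 18.7% higher and 24.2% lower in the first comparison and 13.1% and 18.3% in the second, so the higher calls were near the background. Krt19, a keratin of ductal cells, was at 155, 185 and 176 CPM in the KO libraries and at 823 to 1993 CPM elsewhere (-3.12 and -2.73, edgeR adjusted p = 8.76e-05 and 0.000278). Krt8 was at -1.06 and -0.93 (edgeR adjusted p = 0.000251 and 0.000766). Des, which encodes desmin, a muscle filament protein of the same class as vimentin, had 4 counts in the KO clone, 297 in the unedited clone and 16 in the parental line. It passed the filter only through the unedited libraries, where it is high, so its call among the 7 lower ones supports nothing. With no filter it was at -6.09 against the unedited clone (edgeR adjusted p = 1.88e-08). Against the parental line it was not called (edgeR adjusted p with no filter 0.0821). Krt18, the partner of Krt8, was at -0.35 and -0.19 (edgeR adjusted p = 0.00157 and 0.0427), and the second call was lost without any 1 KO or parental library. The linkers Dst and Macf1 rose in both, by 0.97 and 0.46 against the unedited clone. Both calls against the parental line were lost without KO replicate 1 or 3 or parental replicate 2 or 3, and that of Dst also without parental replicate 1 (adjusted p up to 0.151). Nes, which encodes nestin, a filament protein of progenitor cells, was 0.54 higher than in the unedited clone, a call lost without KO replicate 1 or 3 (adjusted p up to 0.0707), and was not called against the parental line. The count against the parental line was 4 in place of 7 without KO replicate 1 or 3 or parental replicate 2 or 3.

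TGF-beta is known to induce SNAIL and ZEB factors through SMAD proteins. Of 14 pathway genes 12 were tested, and 5 were higher and 3 lower against the unedited clone and 3 higher and 3 lower against the parental line. Beside them stand 18.7% higher and 24.2% lower calls of all tested genes in the first comparison and 13.1% and 18.3% in the second, so the lower calls against the unedited clone were near the background. The ligand Tgfb1 was at 0.64 and 0.40 (edgeR adjusted p = 0.000717 and 0.0119), with the second call lost without KO replicate 1 or 2 or parental replicate 2 or 3 (adjusted p up to 0.0617). The signal carrier Smad3 was at -0.81 and -1.18 (edgeR adjusted p = 0.000843 and 0.000182), while Smad2 and Smad4 were not called. Tgif1, a corepressor of SMAD proteins, was 0.85 higher than in the unedited clone, and Ski, another, was at -0.58 and -0.43, each called in both with the same sign. Without parental replicate 3 or KO replicate 1, 3 genes of the pathway were called against the parental line in place of 6.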

How the data were processed

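RNA-seq was measured in 9 libraries of a mouse pancreatic cancer line, 3 in each of 3 groups, made with a KAPA mRNA kit per the labels. The authors deposited RSEM estimated counts per gene, which are all whole numbers. The submitters' processing notes name STAR 2.5.2, RSEM 1.3.0, DESeq2 1.10.1 and build GRCm38. RSEM divides reads that match several genes by an estimate, so overlapping genes and near-identical copies are uncertain. Strand setting and annotation release are not given in the sources used here. Symbols, positions and exon lengths are from GENCODE M21 (GRCm38), which held 54809 of 54838 identifiers.

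Counts were tested with edgeR 4.0.16 (glmQLFit, glmQLFTest; R 4.3.3) after filterByExpr (minimum count 10, minimum total 15) and TMM scaling, with all 9 libraries in 1 fit and the group as the only term. This left 13153 genes, which held at least 99.88% of each library's counts, and p-values were adjusted over all of them (Benjamini-Hochberg, threshold 0.05). The fit was tested on simulated counts. Groups with 0 counts were given a floor of 3 counts over the group, and ratios of low counts an exact 95% interval. Levels between genes are TMM-scaled CPM per kilobase of merged exons. No pair of libraries of a group agreed within sampling noise (lowest chi-square per gene 4.92).

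The members and lists were chosen with earlier results of these data known. Named list genes were Cdh1, Cdh2 and Fn1, and genes called the same way in both KO comparisons that reached 1 on the absolute log2 scale in each and averaged 5 CPM or more where higher. Other list genes were named after their values were seen, for their role in the pathway. Alternatives were DESeq2 size factors, total counts, no filter, DESeq2 1.42.0, limma 3.58.1 voom, a replicate block, only the groups compared and each library left out. Scaling moved the median of all genes by less than 0.1 (log2).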

Additional observations from a re-analysis of the deposited data

How the results depend on the processing

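Of 18 log2 fold changes, for the 6 tested members in 3 comparisons, 14 kept their sign and their side of the threshold in every alternative run. Twist1 against the unedited clone had no DESeq2 adjusted p. Zeb1 against the parental line changed sign with total counts (-0.000775) and over the left-out libraries (-0.041 to 0.068), and was called in none. The Prrx1 and Vim calls that changed stand with their results, and Prrx1 between the unedited clone and the parental line was also called with no filter (adjusted p = 0.0442) and in DESeq2 (adjusted p = 0.0328). The cause was not tested.

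In the fit of only the KO clone and the parental line, 6840 genes were called in place of 4131, with 5 TWIST dimer genes, 8 other EMT factors and 11 corepressors. The remaining changes are in the unedited clone against the parental line. Only these groups gave 1525 genes in place of 2814, 1 TWIST dimer gene, 0 other EMT factors, 1 SNAIL turnover gene, 1 factor opposing ZEB and 3 epithelial genes. Total counts gave 7 SNAIL turnover genes, 1 factor opposing ZEB and 5 TGF-beta genes. DESeq2 gave 7 SNAIL turnover and 5 TGF-beta genes. No filter and voom each gave 1 factor opposing ZEB. The cause was not tested.

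Same-numbered libraries correlated from -0.134 to 0.212 in their deviations from group means, and differently numbered ones of different groups from -0.301 to 0.252. These values show no pairing by number, but with 3 libraries a group they cannot exclude it. The replicate block gave 5 members called against the unedited clone, 4 against the parental line and 2 between those groups, as without it, and 5528, 3941 and 2492 genes. It left 0 factors opposing ZEB between the unedited clone and the parental line.

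With 1 library left out, the KO clone against the unedited clone gave 4301 to 7204 genes in place of 5643. There it also gave 1 to 4 TWIST dimer genes, 4 to 10 corepressors and 4 to 9 SNAIL turnover genes. Against the parental line it gave 2515 (without parental replicate 3; 2626 without KO replicate 1) to 5693 genes (without unedited replicate 3), 3 to 5 TWIST dimer genes, 3 to 7 other EMT factors, 5 to 10 corepressors, 3 to 8 SNAIL turnover genes, 4 to 9 filament genes and 3 to 8 TGF-beta genes. The unedited clone against the parental line gave 1472 (without parental replicate 1; 1537 and 1792 without parental replicates 2 and 3) to 4102 genes (without unedited replicate 3) and 2 to 4 members, the 4 without unedited replicate 3, where Prrx1 and Vim were called. Its lists gave 1 to 5 TWIST dimer genes, 0 to 3 other EMT factors, 4 to 7 corepressors, 1 to 9 SNAIL turnover genes, 0 to 2 factors opposing ZEB, 3 to 12 epithelial genes, 2 to 7 mesenchymal genes, 2 to 6 filament genes and 1 to 5 TGF-beta genes. Snai1 and Twist2 are limited by depth, with at most 13 counts in a library.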
